A study of Homo sapiens with 4 samples.

Results

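The nucleolar ribosome biogenesis genes examined here were 51 genes whose products work in or around the nucleolus, from transcription of the ribosomal RNA (rRNA) genes to assembly of the ribosomal subunits. They were listed by symbol, and a gene was found on the array through the RefSeq accession of its probes. All 51 of 51 were found, of 22439 genes that could be named in this way. They were covered by 64 probes, 1 probe for each of 41 genes and several for each of 10. Every one of the 64 probes was well above background on all 4 arrays, so no member was lost to a filter on low values and no member value is a bound.

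The nucleolus forms around the rRNA genes, which RNA polymerase I transcribes into 1 long precursor. Small nucleolar ribonucleoproteins (snoRNPs) modify that precursor, the small subunit processome cleaves and folds it, and further factors build the small and large subunits before they are exported to the cytoplasm. Cells that grow and divide quickly need many ribosomes, and the transcription factor *MYC* is known to activate many of these genes.

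A549 cells are an established line from a human lung adenocarcinoma, and the study asked which genes change when either strand of the miR-486 precursor is put back into such cells. One array (the 5p array) carried Cy3-labeled RNA of A549 cells transfected with *miR-486-5p*, the guide strand, and 1 (the 3p array) that of cells transfected with *miR-486-3p*, the passenger strand. The other 2 arrays (mock 1 and mock 2) carried RNA of A549 cells that received the transfection reagent Lipofectamine RNAiMAX with no miRNA. The miRNAs were used at 10 nM in RPMI 1640 medium, and the time after transfection was not given for the arrays. No array held a control miRNA, so an effect of any transfected small RNA and an effect of the named strand cannot be told apart. Each strand was measured on 1 array, so no strand has a replicate of its own. RNA came from whole cultures, in which fewer cells with a transcript and less transcript per cell cannot be told apart.

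All 4 arrays lay on 1 slide, held 58201 probes each, and had 30690 to 31516 probes well above background. Values below are log2 signals, which are the log2 of the background-corrected signal minus the 75th percentile of the array. The log2 difference of a gene is its value on 1 transfected array less the average of mock 1 and mock 2, so −1 is 50% of mock. For a gene with several probes the mean over its probes was used. The SD between the mock arrays was 0.196 on the log2 scale over the 28246 probes above background on all arrays, against 0.522 for the difference of *miR-486-5p* from mock and 0.975 for that of *miR-486-3p*. Over the member probes the mock arrays differed by a median of 0.0562 and by at most 0.269. The epithelial keratin *KRT18* was well above background on every array, with log2 signals of 6.06, 6.09, 5.51 and 5.67 on mock 1, mock 2, *miR-486-5p* and *miR-486-3p*. Among markers of other cell types, *PTPRC*, *CD3E* and *CDH5* also had probes above background, with log2 signals of −4.33 to −1.39 over the arrays, and no probe of the endothelial marker *PECAM1* was above background.

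Of the 42 members whose promoter is in the RefSeq table used (GRCh38.p14, 250 bases before to 50 after the start), 19 held the sequence CACGTG, the E-box to which *MYC* and its partner *MAX* are known to bind. That was 45.2%, against 8.77% of the 27305 genes with a promoter in the table and 7.26% of the 35116 promoters. The share was 33.3% of 81 other ribosome biogenesis genes and 6.67% of 60 ribosomal protein genes. The motif is its own reverse complement, so it reads the same on both strands, and no other motif was searched. For 6 members the motif began before the start site with its full surroundings in the table. These windows are shown because the same motif recurs in genes of the snoRNPs and the processome and is also present in the helicase gene *DDX21*. Capitals mark the motif, and each window is written 5′ to 3′ on the strand of the gene. For *UTP20* (chr12:101280083-101280112, plus strand) the motif begins 10 bases before the start, for *DDX21* (chr10:68956604-68956633, plus strand) 31 bases, and for *UTP4* (chr16:69132621-69132650, plus strand) 16 bases. For *RRP9* (chr3:51941892-51941921, minus strand) it begins 5 bases before, for *NOP10* (chr15:34343130-34343159, minus strand) 11 bases, and for *NAT10* (chr11:34105602-34105631, plus strand) 15 bases. A second motif of *NOP10* begins 170 bases before the start, and its window is not shown.
UTP20: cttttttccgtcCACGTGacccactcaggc
DDX21: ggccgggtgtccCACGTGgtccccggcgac
UTP4: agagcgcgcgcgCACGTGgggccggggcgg
RRP9: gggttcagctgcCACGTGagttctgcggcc
NOP10: gaaattgacgaaCACGTGacgcggtcgggc
NAT10: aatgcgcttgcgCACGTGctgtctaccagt

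After *miR-486-3p* transfection most members were lower than in mock cells. Among the members, 35 had a log2 difference below −0.5 and 4 had one above 0.5, where 27.2% and 30.4% of all 16446 genes measured lay below and above these limits. The median log2 difference of the members was −0.83, with a range of −2.66 to 1.00, and that of all genes was 0.06. In 19 members the log2 difference was below −1, as it was in 2311 of the 16446 genes. In limma with Benjamini-Hochberg adjustment, 36 members were called lower and 5 higher, against 31.6% and 31.9% of 16662 genes, and *POLR1D* is in both counts because its probes disagreed. The 3p array lay below both mock arrays for 43 members, above both for 6 and between them for 2, where 44.9% of all genes lay below and 49.5% above. Scaling on the median of each array instead of its 75th percentile moved the median of all genes by −0.37. It gave 7574 genes lower and 3413 higher in limma, against 5261 and 5309. With it 42 members were below −0.5, against 41.7% of all genes, and 43 were called lower in limma. These included *NOP58*, *GAR1*, *WDR43*, *WDR74*, *LTV1*, *NAT10* and *NOLC1*, which were not called with scaling on the 75th percentile. The median of the members lay −0.89 from that of all genes, a distance that a constant per array cannot change, and it was −0.71 with quantile normalization, −0.71 in the values of the authors and −0.77 with normexp background correction.

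After *miR-486-5p* transfection the differences were smaller and lay below 0 for 40 of the 51 members. In 11 members the log2 difference was below −0.5 and in 0 it was above 0.5, against 15.9% and 13.8% of 16024 genes. The median over the members was −0.27, with a range of −0.86 to 0.40, against 0.03 over all genes. The array lay below both mock arrays for 39 members, above both for 9 and between them for 3, against 42.2% of all genes below and 47.1% above. limma called 1 member lower (*TCOF1*) and 0 higher, where 6.66% of all genes were called lower and 3.58% higher. The adjusted count of 1 ranged from 0 to 31 over the settings tried, while the count over all genes ranged from 0 to 4170.

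**Figure D1:**
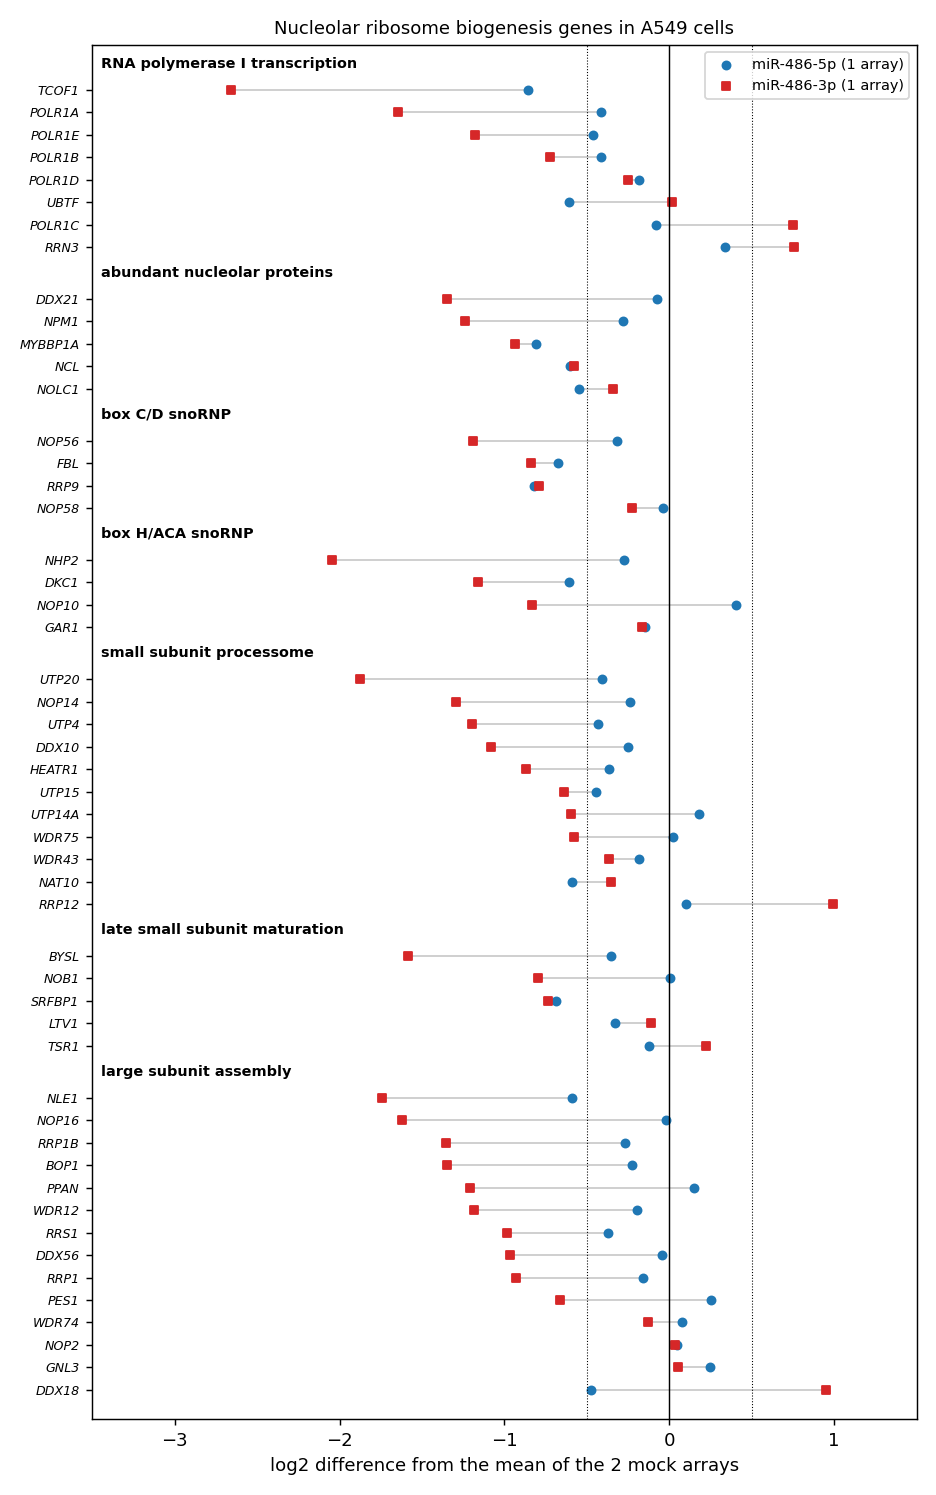
Log2 difference from mock (average of both mock arrays) of each of the 51 members, after *miR-486-5p* (circles, 1 array) and *miR-486-3p* (squares, 1 array), grouped by role and ordered by the *miR-486-3p* value. Dotted lines mark −0.5 and 0.5. After *miR-486-3p*, 35 members lie left of −0.5 and 4 right of 0.5, and after *miR-486-5p* 11 lie left of −0.5 and 0 right of 0.5.

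The 8 members that act in RNA polymerase I transcription spread most widely. After *miR-486-3p*, 4 were below −0.5 and 2 above 0.5, with log2 differences from −2.66 to 0.76 and a median of −0.49. *TCOF1* encodes treacle, a nucleolar protein that links rRNA gene transcription to processing, and had mean log2 signals of 1.30 and 1.31 on the mock arrays, 0.45 on the 5p array and −1.35 on the 3p array. The mock arrays lay together, the 5p array below them and the 3p array furthest down. It fell to 15.9% of mock after *miR-486-3p* (log2 difference −2.66), the lowest of the 51 members. Its 3 probes gave log2 differences of −3.24, −2.23 and −2.50, each with an adjusted p of 0.00762. It was also the lowest member after *miR-486-5p*, at 55.1% of mock, where 2 of the 3 probes were called lower (adjusted p = 0.0475 and 0.0495) and the other was not (−0.60, adjusted p = 0.0706).

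The catalytic subunits of RNA polymerase I were both lower after *miR-486-3p*. *POLR1A*, the largest subunit, had log2 signals of 2.33 on both mock arrays, 1.92 on the 5p array and 0.69 on the 3p array. The 3p array lay well below the other 3. *POLR1A* fell to 32.0% of mock (log2 difference −1.64, SE 0.0873, adjusted p = 0.00786). *POLR1B*, the other catalytic subunit, fell to 60.6% and the accessory subunit *POLR1E* to 44.1% (adjusted p = 0.0188 and 0.0189). After *miR-486-5p* these subunits had log2 differences between −0.46 and −0.41, none of them called.

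Other polymerase I genes moved the opposite way. *POLR1C*, a subunit shared with RNA polymerase III, had mean log2 signals of 3.04 on both mock arrays, 2.96 on the 5p array and 3.79 on the 3p array. It was highest on the 3p array, rose by 0.75 on the log2 scale, and both of its probes were called (adjusted p = 0.0128 and 0.025). *RRN3*, the initiation factor TIF-IA, had mean log2 signals of −1.75 and −1.82 on the mock arrays, −1.45 on the 5p array and −1.03 on the 3p array. Both transfected arrays lay above the mock arrays. Its log2 difference was 0.76 after *miR-486-3p*, where 2 of its 3 probes were called higher (1.08 and 1.05) and 1 was not (0.14). *RRN3* has near-identical pseudogene copies that its probes may also bind, so its values are uncertain. After *miR-486-5p* it was 0.34 with no probe called.

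*UBTF* and *POLR1D* followed neither pattern. *UBTF* encodes UBF, the factor that holds rRNA gene chromatin open, and had log2 signals of 0.49 and 0.50 on the mock arrays, −0.11 on the 5p array and 0.51 on the 3p array. Only the 5p array stood apart, below the other 3. Its log2 difference was −0.61 after *miR-486-5p* (adjusted p = 0.0572) and 0.02 on the 3p array (adjusted p = 0.885), the latter −0.36 with median scaling. *POLR1D*, a further subunit shared with RNA polymerase III, had 2 probes that are listed to different transcripts of the gene. The first had log2 signals of 2.95 and 2.91 on the mock arrays, 2.90 on the 5p array and 1.58 on the 3p array, and the second −1.04, −1.08, −1.39 and −0.21. On the 3p array the first probe lay below mock and the second above it. They gave log2 differences of −1.35 (adjusted p = 0.00888) and 0.85 (adjusted p = 0.0146) after *miR-486-3p*. The mean of −0.25 therefore describes neither transcript. After *miR-486-5p* the same probes gave −0.03 and −0.33, neither called.

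Among the 5 abundant nucleolar proteins, 4 fell after *miR-486-3p* and none was called after *miR-486-5p*, where 3 were below −0.5. *NPM1*, nucleophosmin, a chaperone of the outer nucleolus, had mean log2 signals of 7.93 and 7.87 on the mock arrays, 7.62 on the 5p array and 6.66 on the 3p array. It was lowest on the 3p array, and the 5p array lay slightly below mock. It fell to 42.3% of mock after *miR-486-3p*, with all 3 probes called (log2 differences −1.43 to −1.02, adjusted p 0.00885 to 0.0115). Its probes may also bind transcripts of its many processed pseudogenes, so its values are uncertain. *DDX21*, an RNA helicase whose E-box is shown above, fell to 39.2% of mock after *miR-486-3p* (log2 difference −1.35, SE 0.0919, adjusted p = 0.00901) and was at 95.1% after *miR-486-5p* (adjusted p = 0.6).

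*NCL* and *MYBBP1A* lay below mock on both transfected arrays. *NCL*, nucleolin, which binds rRNA precursors and rRNA gene chromatin, had log2 signals of 7.03 and 7.04 on the mock arrays, 6.44 on the 5p array and 6.46 on the 3p array. Both transfected arrays lay below the mock arrays. Its log2 differences were −0.60 (adjusted p = 0.0574) and −0.58 (adjusted p = 0.0246), so only the fall after *miR-486-3p* was called. *MYBBP1A*, a nucleolar partner of transcription factors, had log2 signals of 1.35 and 1.39 on the mock arrays, 0.56 on the 5p array and 0.44 on the 3p array. Again both transfected arrays lay below mock. It was at 57.1% of mock after *miR-486-5p* (adjusted p = 0.0503) and fell to 52.3% after *miR-486-3p* (adjusted p = 0.0127). *NOLC1*, a chaperone of snoRNPs, had log2 differences of −0.55 and −0.34, neither called, and the second was −0.72 with median scaling.

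The box C/D snoRNPs include the particles that place methyl groups on rRNA, and 3 of the 4 genes listed under them fell after *miR-486-3p*. *FBL*, fibrillarin, the methyltransferase of the particle, had log2 signals of 8.62 and 8.74 on the mock arrays, 8.01 on the 5p array and 7.84 on the 3p array. Both transfected arrays lay below both mock arrays. *FBL* fell to 55.8% of mock after *miR-486-3p* (log2 difference −0.84, SE 0.108, adjusted p = 0.0189) and was at 62.5% after *miR-486-5p* (−0.68, adjusted p = 0.0619). *RRP9*, which binds the U3 snoRNA that guides precursor cleavage, had log2 signals of 2.60 and 2.69 on the mock arrays, 1.82 on the 5p array and 1.85 on the 3p array. As for *NCL*, both transfected arrays lay below mock. *RRP9* was at 56.5% after *miR-486-5p* (adjusted p = 0.0521) and fell to 57.8% after *miR-486-3p* (adjusted p = 0.018). *NOP56*, a scaffold of the particle, fell to 43.9% after *miR-486-3p*. After *miR-486-5p* its 2 probes differed, at −0.71 and 0.08, and neither was called. *NOP58*, its partner in the scaffold, was at 85.4% of mock on the 3p array and 97.3% on the 5p array, neither called. With median scaling the log2 difference of *NOP58* after *miR-486-3p* was −0.60 and was called.

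The box H/ACA snoRNP core converts uridines of rRNA to pseudouridines and is also part of telomerase. Of its 4 genes, 3 fell after *miR-486-3p*. *NHP2* had log2 signals of 7.47 and 7.44 on the mock arrays, 7.18 on the 5p array and 5.41 on the 3p array. The 3p array lay far below the other 3. *NHP2* fell to 24.2% of mock (log2 difference −2.05, SE 0.0895, adjusted p = 0.00762), the second lowest member. *DKC1*, dyskerin, the pseudouridine synthase itself, had log2 signals of 4.71 on both mock arrays, 4.11 on the 5p array and 3.55 on the 3p array. Its signal stepped down from mock to *miR-486-5p* to *miR-486-3p*. *DKC1* fell to 44.8% after *miR-486-3p* (adjusted p = 0.00979) and was at 65.7% after *miR-486-5p* (adjusted p = 0.0572).

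The remaining H/ACA proteins behaved differently from these. *NOP10*, whose promoter window is shown above, had log2 signals of 7.22 and 7.14 on the mock arrays, 7.59 on the 5p array and 6.35 on the 3p array. Its transfected arrays lay on opposite sides of mock. It fell to 56.1% of mock after *miR-486-3p* (adjusted p = 0.0164) and was the highest member after *miR-486-5p*, at 132%, which was not called (adjusted p = 0.0977). *GAR1* was at 89.1% and 90.2% of mock, neither called, but with median scaling its log2 difference after *miR-486-3p* was −0.54 and was called.

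**Figure D2:**
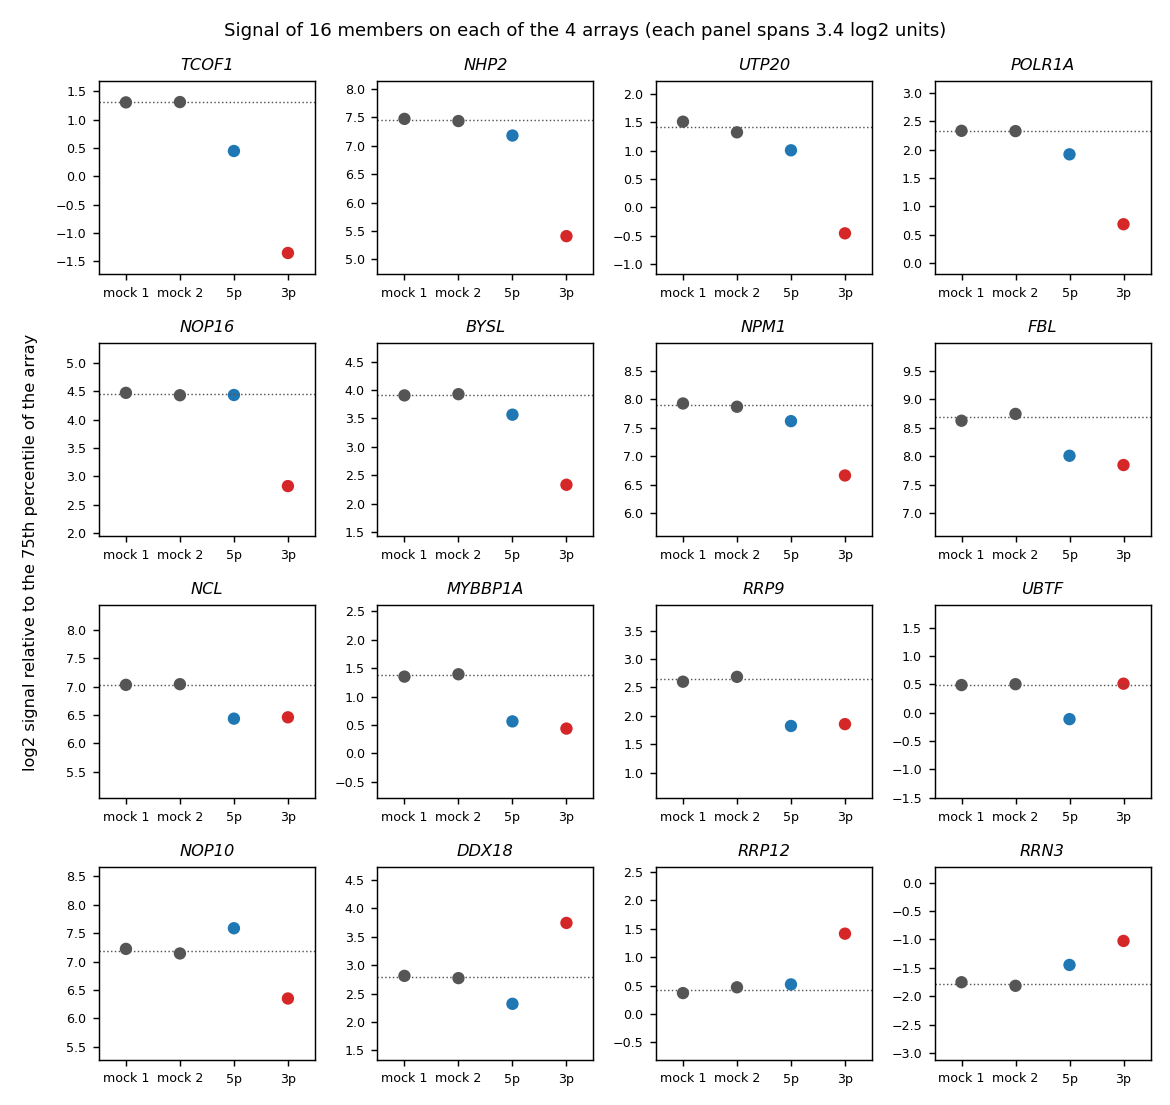
Log2 signal, relative to the 75th percentile of the array, of selected members on mock 1, mock 2, the *miR-486-5p* array (5p) and the *miR-486-3p* array (3p). Each point is 1 array, the dotted line is the mean of the mock arrays, and all panels span the same number of log2 units. *TCOF1* drops from 1.30 and 1.31 to −1.35 on the *miR-486-3p* array, *NCL* and *RRP9* are low on both transfected arrays, and *DDX18* and *RRP12* are highest on the *miR-486-3p* array.

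The small subunit processome is the large particle that forms on the 5′ end of the rRNA precursor. Of its 11 members, 8 fell and 1 rose after *miR-486-3p*. Their median log2 difference was −0.64, and none was called after *miR-486-5p*. *UTP20*, a long scaffold protein of the particle, had log2 signals of 1.51 and 1.32 on the mock arrays, 1.00 on the 5p array and −0.46 on the 3p array. Its 3p array lay lowest by a wide margin. *UTP20* fell to 27.3% of mock (log2 difference −1.87, SE 0.131, adjusted p = 0.00914). *NOP14* and *UTP4* fell to 40.8% and 43.6% of mock, and *DDX10*, a helicase, to 47.3%. *HEATR1*, *UTP15*, *UTP14A* and *WDR75* fell to between 54.7% and 67.0%. The *UTP14A* probe may also bind transcripts of the retrocopy UTP14C.

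*RRP12* was the one processome member that rose. It takes part in export and maturation of the small subunit, and had log2 signals of 0.37 and 0.47 on the mock arrays, 0.52 on the 5p array and 1.41 on the 3p array. The 3p array lay far above the others. *RRP12* was at 199% of mock (log2 difference 1.00, SE 0.102, adjusted p = 0.0138), the highest of the 51 members, and at 107% after *miR-486-5p*. *NAT10*, which acetylates rRNA, was at 66.4% of mock on the 5p array (adjusted p = 0.0598) and at 78.2% on the 3p array (adjusted p = 0.0614), where its log2 difference was −0.73 with median scaling. *WDR43* was at 88.2% and 77.7%, and neither strand was called, but with median scaling the second log2 difference was −0.74 and was called. *UTP14A* had log2 signals of −0.94 and −0.99 on the mock arrays, −0.78 on the 5p array and −1.55 on the 3p array. It lay above mock on the first transfected array (log2 difference 0.18, adjusted p = 0.257) and below on the second (−0.59, adjusted p = 0.0251).

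Of the 5 genes for late steps of the small subunit, 3 fell after *miR-486-3p*. *BYSL*, bystin, which binds late precursors of the small subunit, had log2 signals of 3.91 and 3.93 on the mock arrays, 3.57 on the 5p array and 2.33 on the 3p array. The 3p array lay well below the rest. *BYSL* fell to 33.3% of mock (log2 difference −1.59, SE 0.088, adjusted p = 0.008). *NOB1*, the nuclease that makes the final cut of 18S rRNA, fell to 57.6% after *miR-486-3p* and was at 100% of mock after *miR-486-5p*. *SRFBP1*, known also as a partner of serum response factor, had log2 signals of 1.59 and 1.49 on the mock arrays, 0.85 on the 5p array and 0.80 on the 3p array. It was low on both transfected arrays, at 62.2% (adjusted p = 0.0585) and 60.1% (adjusted p = 0.0214) of mock. *TSR1*, a GTPase-like assembly factor, had mean log2 signals of 6.24 and 6.30 on the mock arrays, 6.15 on the 5p array and 6.50 on the 3p array. These are means over 2 probes, at 3.02 and 9.45 on mock 1, so they describe the level of neither. The mean log2 differences of *TSR1*, −0.12 and 0.22, were not called, and with median scaling the second was −0.15. After *miR-486-5p* the probes gave −0.36 and 0.11. *LTV1* was at 79.7% and 92.6%, neither called, but with median scaling the second log2 difference was −0.48 and was called.

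Large subunit assembly had 14 members, of which 10 fell and 1 rose after *miR-486-3p*. Their median log2 difference was −0.98. After *miR-486-5p* the median was −0.10 and none was called. *NLE1*, which binds the AAA ATPase that remodels the pre-60S particle, had mean log2 signals of 1.15 and 1.33 on the mock arrays, 0.65 on the 5p array and −0.50 on the 3p array. Both transfected arrays lay below mock, the 3p array further. *NLE1* fell to 29.9% of mock after *miR-486-3p*, with both probes called (adjusted p = 0.00776 and 0.0147), and was at 66.4% after *miR-486-5p*. *NOP16* had log2 signals of 4.47 and 4.43 on the mock arrays, 4.43 on the 5p array and 2.83 on the 3p array. Only the 3p array stood apart. *NOP16* fell to 32.5% of mock (log2 difference −1.62, SE 0.09, adjusted p = 0.008) and was at 98.8% after *miR-486-5p*.

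The PeBoW complex, made of *PES1*, *BOP1* and *WDR12*, is needed for maturation of 28S and 5.8S rRNA, and all of its genes fell after *miR-486-3p*. *BOP1* and *WDR12* fell to 39.3% and 44.0% of mock. *PES1* had log2 signals of 0.94 and 1.03 on the mock arrays, 1.23 on the 5p array and 0.32 on the 3p array. The 5p array lay above both mock arrays and the 3p array below them. *PES1* fell to 63.2% after *miR-486-3p* (adjusted p = 0.0244) and was at 119% after *miR-486-5p* (adjusted p = 0.191).

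*RRP1B*, a nucleolar protein of the large subunit pathway, had log2 signals of 2.40 and 2.32 on the mock arrays, 2.09 on the 5p array and 1.00 on the 3p array. It was lowest on the 3p array. *RRP1B* fell to 39.1% of mock (log2 difference −1.35, adjusted p = 0.0093), and its paralog *RRP1* to 52.4%. *PPAN* fell to 43.3%, *RRS1* to 50.5% and the helicase *DDX56* to 51.1%.

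The other 4 large subunit genes were not called lower after either strand. *DDX18*, an RNA helicase, had log2 signals of 2.81 and 2.77 on the mock arrays, 2.32 on the 5p array and 3.74 on the 3p array. The transfected arrays lay on opposite sides of mock. *DDX18* rose to 194% of mock after *miR-486-3p* (log2 difference 0.95, SE 0.0897, adjusted p = 0.0124) and was at 72.1% after *miR-486-5p* (adjusted p = 0.074). With median scaling the log2 differences of *RRP12*, *DDX18*, *RRN3* and *POLR1C* after *miR-486-3p* were 0.62, 0.58, 0.38 and 0.37. *GNL3*, nucleostemin, a GTP-binding protein abundant in proliferating cells, had log2 signals of 3.84 and 3.73 on the mock arrays, 4.03 on the 5p array and 3.84 on the 3p array. Its log2 differences of 0.25 and 0.05 were not called, and the second was −0.32 with median scaling. *NOP2*, an rRNA methyltransferase, and *WDR74* had log2 differences between −0.13 and 0.08, none of them called. With median scaling the log2 difference of *WDR74* after *miR-486-3p* was −0.50 and was called.

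The arrays of the strands were also compared with each other, since their differences from mock share the mock arrays. After *miR-486-3p*, 28 members were more than 0.5 lower on the log2 scale than after *miR-486-5p* and 4 were more than 0.5 higher, against 26.4% and 28.6% of 16561 genes. The median log2 difference over the members was −0.60, against 0.03 over all genes. limma called 28 members lower and 7 higher after *miR-486-3p* than after *miR-486-5p*, against 27.3% and 26.7% of all genes, with *POLR1D* again in both counts. With median scaling the same contrast gave 30 members lower and 4 higher, against 6422 and 3183 of 16662 genes. The largest differences below 0 were those of *TCOF1* (−1.80, probes with adjusted p 0.0119 to 0.0135), *NHP2* (−1.77, adjusted p = 0.0119), *NOP16* (−1.60, adjusted p = 0.0123) and *UTP20* (−1.46, adjusted p = 0.0179). The largest above 0 were those of *DDX18* (1.43, adjusted p = 0.0129), *RRP12* (0.89, adjusted p = 0.0241), *POLR1C* (0.83, probes with adjusted p 0.0215 and 0.0228) and *UBTF* (0.62, adjusted p = 0.0325, but 0.33 with median scaling).

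Of the 11 members below −0.5 on the 5p array, 8 (*TCOF1*, *NCL*, *MYBBP1A*, *FBL*, *RRP9*, *DKC1*, *SRFBP1* and *NLE1*) were also below it on the 3p array, as were 27 of the other 40, and nothing is read from these counts because both differences use the same mock arrays. For 5 of the 8 (*NCL*, *MYBBP1A*, *FBL*, *RRP9* and *SRFBP1*) the difference between the strands was between −0.16 and 0.03 with SEs of 0.101 to 0.124, and none was called. With median scaling these differences were between −0.46 and −0.26, again with none called. The other 3 (*TCOF1*, *DKC1* and *NLE1*) were lower after *miR-486-3p* than after *miR-486-5p* in limma. *NAT10*, *NOLC1* and *UBTF* were below −0.5 on the 5p array and not on the 3p array, but with median scaling *NAT10* and *NOLC1* were below it on both. Of these 3, limma called *UBTF* different between the strands, a call that was lost with median scaling (adjusted p = 0.141).

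The rest of the pathway was taken from a list of 90 other ribosome biogenesis genes, of which 89 were measured. After *miR-486-3p*, 38 (42.7%) were below −0.5 and 18 (20.2%) above 0.5, against 27.2% and 30.4% of all genes. Their median log2 difference was −0.27. In limma 41 of the 89 were called lower and 18 higher, against 31.6% and 31.9% of all genes. With median scaling 52 (58.4%) were below and 3 (3.37%) above, against 41.7% and 17.8% of all genes, with a median of −0.64. *EMG1*, a methyltransferase of 18S rRNA, had mean log2 signals of 5.04 on both mock arrays, 5.31 on the 5p array and 2.39 on the 3p array. It stood low on the 3p array alone and fell by 2.65 on the log2 scale. *MRTO4*, a placeholder for the ribosomal stalk on pre-60S particles, and the polymerase I subunit *POLR1G* fell by 2.28 and 2.11. *ZNF622*, a late pre-60S factor, and *UTP25*, of the processome, rose by 1.19 and 0.95. *RSL1D1* had the highest mean, 1.41, but its probes gave −0.43 and 3.25.

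After *miR-486-5p*, 10 of the other genes (11.2%) were below −0.5 and 6 (6.74%) above 0.5, with a median log2 difference of −0.05. Both shares were under those of all genes, 15.9% and 13.8%. limma called *EBNA1BP2*, a large subunit factor, and *FCF1*, of the processome, lower (−1.09 and −0.98, adjusted p = 0.0475 and 0.0476) and none higher. Over all genes 6.66% were called lower and 3.58% higher. *EBNA1BP2* had log2 signals of 7.91 and 7.82 on the mock arrays, 6.77 on the 5p array and 6.20 on the 3p array. Both transfected arrays lay below mock. *LAS1L*, of the rRNA spacer nuclease complex, was at −0.85 (adjusted p = 0.0503). The highest values were those of *ZNF622* (0.63), *UTP3* (0.62) and *SURF6* (0.57), none of them called.

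The cytosolic ribosomal protein genes encode the proteins that are built into the subunits, and 75 of 77 were measured. After *miR-486-3p*, 10 were below −0.5 and 3 above 0.5, with a median log2 difference of −0.11 and a middle range (quartiles) of −0.28 to 0.07. With median scaling 37 were below and 1 above, with a median of −0.48, where 41.7% and 17.8% of all genes lay below and above. The quartiles of the members were −1.20 and −0.30. After *miR-486-5p*, 2 ribosomal protein genes were below −0.5 and 0 above 0.5, with a median of 0.00. Many of these genes have processed pseudogenes, so their values are uncertain.

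**Figure D3:**
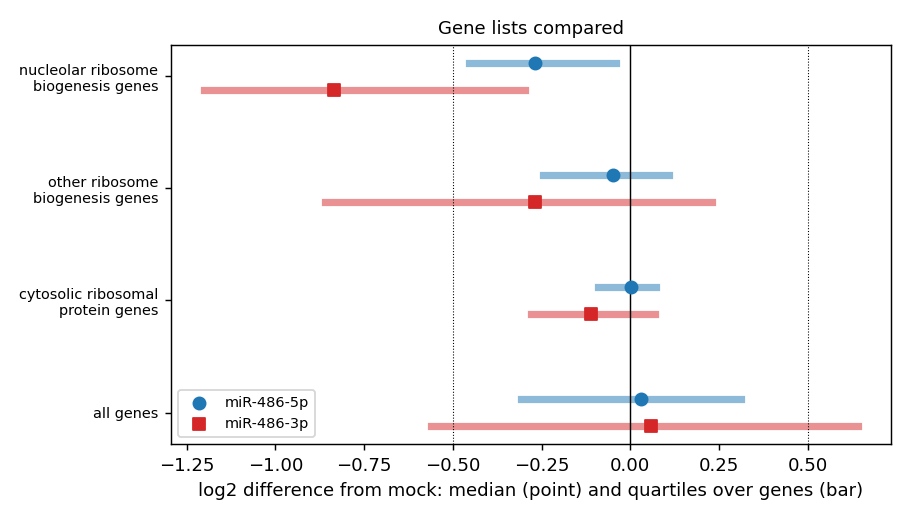
Median (point) and quartiles (bar) over genes of the log2 difference from mock for the members, the other ribosome biogenesis genes, the cytosolic ribosomal protein genes and all genes measured, after *miR-486-5p* (circles) and *miR-486-3p* (squares). Dotted lines mark −0.5 and 0.5. The members lie furthest left, with medians of −0.27 and −0.83, and the ribosomal protein genes have medians of 0.00 and −0.11, the latter −0.48 with median scaling.

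*MYC* and the genes of its network were measured beside the members. *MYC* had log2 signals of 5.04 and 4.86 on the mock arrays, 4.35 on the 5p array and 1.62 on the 3p array, on 1 probe. The 5p array lay below both mock arrays and the 3p array far below all others. *MYC* fell to 9.92% of mock after *miR-486-3p* (log2 difference −3.33, SE 0.126, adjusted p = 0.00762), and its log2 difference after *miR-486-5p* was −0.60 (adjusted p = 0.0832). *MAX*, the partner with which *MYC* binds DNA, rose by 1.14 on the log2 scale after *miR-486-3p*, with all 3 probes called, and was at 0.18 after *miR-486-5p* with none called. *MXD1*, which competes with *MYC* for *MAX*, rose by 0.66 after *miR-486-3p*, and its mean log2 difference after *miR-486-5p* was 0.83 with 1 of 2 probes called (adjusted p = 0.0492). Of the 10 network genes measured, 2 were below −0.5 and 4 above 0.5 after *miR-486-3p*, and 2 below and 3 above after *miR-486-5p*. Over all genes 27.2% and 30.4% lay below and above after *miR-486-3p*, and 15.9% and 13.8% after *miR-486-5p*. With median scaling 3 network genes were below and 1 above after *miR-486-3p*, against 41.7% and 17.8% of all genes. That scaling shifts each log2 difference after *miR-486-3p*, those of *MAX* and *MXD1* included, by −0.37. The part of *MYC* in the values of the members was not tested.

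**Figure D4:**
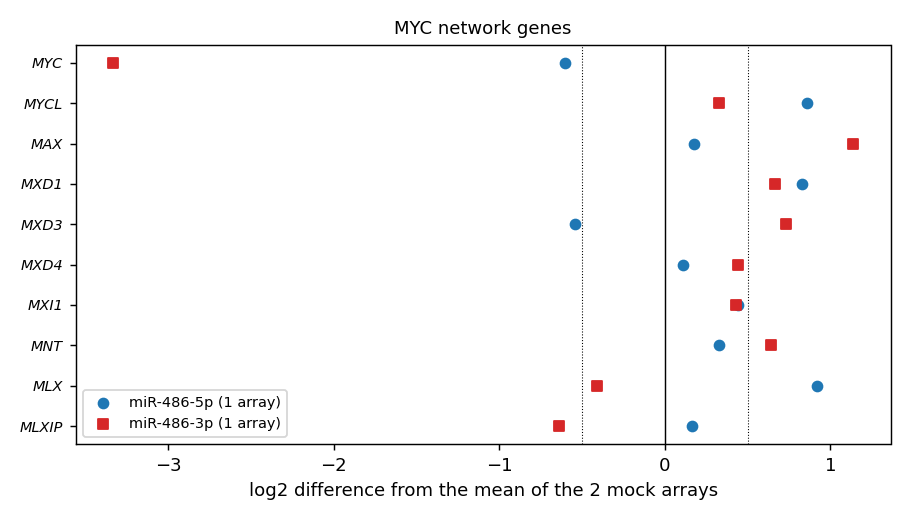
Log2 difference from mock (average of both mock arrays) of the 10 measured genes of the *MYC* network, after *miR-486-5p* (circles, 1 array) and *miR-486-3p* (squares, 1 array), with dotted lines at −0.5 and 0.5. *MYC* lies at −3.33 (*miR-486-3p*) and −0.60 (*miR-486-5p*), while *MAX* lies at 1.14 after *miR-486-3p*. The value of *MXD3* after *miR-486-5p* is a bound. Median scaling shifts each *miR-486-3p* value by −0.37.

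The members with and without the E-box in their promoter window had close values after *miR-486-3p*. Of the 19 with it, 13 were below −0.5 and 0 above 0.5, with a median log2 difference of −0.79 and a range of −1.87 to 0.05. Of the 23 without it, 17 were below and 2 above, with a median of −0.87, and of the 9 with no promoter listed 5 were below and 2 above, with a median of −0.99. After *miR-486-5p* the medians were −0.33 with the motif and −0.20 without it. Among the windows printed above, *UTP20* and *DDX21* belong to genes that fell to 27.3% and 39.2% of mock after *miR-486-3p*, while *NAT10*, with the same motif, was at 78.2% and not called. A match to these letters is a description of the sequence and does not show that a factor binds there in A549 cells.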

How the data were processed

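RNA of 4 A549 samples was hybridized to 1-color Agilent arrays, and groups were taken from the sample labels. The authors deposited the scanner output of each array, with an intensity per spot on a linear scale that Agilent Feature Extraction 12.1.1.1 had corrected for background, and a table of log2 values whose normalization is not given in the sources used here. Their medians were 2.76 on all arrays and they correlated with the log2 scanner signal at 0.9996 to 0.9999 (Pearson).

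The log2 of the processed signal minus the 75th percentile of each array was used. Outlier spots (50 to 72 per array) were left out, spots of a probe were averaged, and no spot was saturated. Of 33080 probes with a RefSeq accession, 31104 were named through RefSeq (GRCh38.p14), used for names only because the arrays were annotated on another build. limma 3.58.1 in R 4.3.3 was fitted to 33498 probes in 3 groups with Benjamini-Hochberg adjustment at 0.05. Its 1 residual degree of freedom lies between the mock arrays (prior: 1.75 degrees of freedom, SD 0.0893), so the spread of the mock arrays stands for that of the transfected ones. Whether these came from separate cultures is not stated, and p-values measure only the spread between them. Any 1 called probe made its gene called. The fit was tested on simulated data. The number of arrays limits the precision.

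Named with values were *NCL*, *NPM1* and *FBL*, the 8 lowest and 5 highest members for each strand, the 4 lowest and 4 highest between the strands, members called after *miR-486-5p*, members whose probes differ by over 1, the 3 lowest and 3 highest other genes for each strand, and *MYC*, *CDKN1A* and *MDM2*. Further members and *MAX*, *MXD1* and the p53 targets with values were added by role after their values were seen. The values of 1 marker gene are not reported here. Members, lists and rule were chosen with earlier results of these data known.

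Alternatives were median scaling, quantile normalization, the log2 values of the authors, normexp (offset 50), no filter, probes above background on all arrays, the brightest probe, a limit of 1, leaving out mock 1 or mock 2, limma with a trend on intensity, and the methods' t-test.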

Additional observations from a re-analysis of the deposited data

How the results depend on the processing

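With a limit of 1 in place of 0.5, 0 members were below it on the 5p array, 19 below and 0 above on the 3p array, and 13 below and 1 above between the strands, and of the other ribosome biogenesis genes 1, 16 and 13 were below. Over all genes 739 of 16024, 2311 of 16446 and 2150 of 16561 were below −1. Median scaling left 2 members above 0.5 after *miR-486-3p*, with a median of −1.21. Between the strands it gave a median of −0.90, 47 other genes below −0.5 (against 38.9% of all genes), and 4 members called higher. The median after *miR-486-3p* was −0.68 with normexp, and the median between the strands was −0.42 both with quantile normalization and with the values of the authors. *RSL1D1* turned negative on its brightest probe, at −0.43 after *miR-486-3p* and −0.39 between the strands. After *miR-486-5p*, the number of members called lower by limma was 11 with median scaling, 2 with quantile normalization, 0 with the values of the authors, 31 with normexp (1 higher), 0 without a filter, 18 on probes above background on all arrays and 31 with an intensity trend (2 higher). Over all genes the counts called lower were, in the same order, 2343, 1387, 0, 3845, 0, 3099 and 4170. These were of 16662 genes, but of 22439 without a filter and of 14960 on probes above background on all arrays. Higher calls over all genes were 3695 with normexp and 3699 with the trend. The methods' t-test called 16 lower and 1 higher unadjusted, against 2335 and 2047 of 16662 genes. After Benjamini-Hochberg adjustment it called 0 in each direction for all 3 comparisons. With mock 1 or mock 2 left out, 11 to 12 members were below −0.5 on the 5p array and 35 on the 3p array, and limma has no residual degrees of freedom. Over all counts, medians and named genes, 253 alternative values moved. Among named genes 22 of 1000 changed sign, of which 2 (both *RSL1D1*) were past 0.5 at first and 7 came with median scaling. No paired analysis was possible because each strand has 1 array. A block for the slide was not run, since there was 1 slide, and normexp used the median signal, the foreground column held.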

Other observations

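Known targets of p53, which responds to impaired ribosome assembly among other stresses, lay on both sides of mock. Of 18 measured, 3 had a log2 difference below −0.5 and 6 above 0.5 on the 5p array, where 15.9% and 13.8% of all genes did. On the 3p array 7 were below and 6 above, against 27.2% and 30.4% of all genes, and the median was 0.04 on both arrays. With median scaling 7 were below and 3 above on the 3p array, against 41.7% and 17.8% of all genes. That scaling shifts each log2 difference on the 3p array by −0.37, which includes the rise of *CDKN1A* given next. *CDKN1A*, the inhibitor p21 of cyclin-dependent kinases, had log2 signals of −1.30 and −1.25 on the mock arrays, −0.52 on the 5p array and −0.80 on the 3p array. Both transfected arrays lay above mock, with log2 differences of 0.76 (adjusted p = 0.0523 in limma) and 0.48 (adjusted p = 0.0365). *MDM2*, the ligase that degrades p53, had mean log2 signals of 0.43 and 0.25 on the mock arrays, 0.49 on the 5p array and −0.58 on the 3p array. It fell by 0.92 on the log2 scale after *miR-486-3p*, with all 3 probes called, and was at 0.15 after *miR-486-5p* with none called. *TNFRSF10B*, a death receptor, rose after both strands, by 0.91 (adjusted p = 0.0478) and 1.35 (adjusted p = 0.00873). *GDF15*, a secreted stress cytokine, fell after both, to 35.9% and 49.7% of mock (adjusted p = 0.0475 and 0.0118).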
